A study of Homo sapiens with 12 samples.

Results

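The genes described here are the extracellular antagonists of BMP and the membrane pseudoreceptor *BAMBI*, 9 genes in all, which were chosen by name and matched to the count table through the GENCODE v44 symbols of their Ensembl identifiers. All 9 (*BAMBI*, *NOG*, *CHRD*, *GREM1*, *TWSG1*, *BMPER*, *FST*, *FSTL3* and *FSTL1*) were found among 58302 identifiers. RNA came from MIB1-iKO cells, a line made by dilution cloning from the lung cancer line NCIH838, in which Dox induces Cas9 for the editing of *MIB1*. All cells spent 3 days with LDN (50 nmol/L), which inhibits BMP type I receptors, either without Dox (MIB1 WT) or with 0.5 μg/mL Dox (MIB1 KO). All then received 10 ng/mL BMP4 for 24 hours, BMP-off cells with LDN at 50 nmol/L still present and BMP-on cells with DMSO instead. The 4 groups held 3 libraries each, and as no source says whether these were separate cultures, p-values measure only the spread between the libraries, which may be technical. Every KO library and no WT library had Dox, so effects of Dox or of Cas9 cannot be told apart from those of MIB1 loss.

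BMP ligands bind receptors with serine/threonine kinase activity, which phosphorylate SMAD1, SMAD5 and SMAD9. These SMAD proteins enter the nucleus with SMAD4 and act on target genes, among them genes for inhibitors of the same pathway. *BAMBI* encodes a transmembrane protein that resembles a type I receptor but has no kinase domain. *NOG*, *CHRD* and *GREM1* encode secreted proteins (noggin, chordin and gremlin) that bind BMP ligands and keep them from their receptors. *TWSG1* and *BMPER* encode secreted modulators that bind BMP ligands or chordin and can act for or against the pathway. Follistatin (*FST*) and the follistatin-like protein of *FSTL3* bind activins most strongly, while *FSTL1* encodes a related secreted glycoprotein.

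Libraries held between 19124010 and 29498000 counts. *MIB1* ranged from 143.5 to 175.4 CPM (counts scaled to library size after TMM) in the 6 WT libraries and from 31.0 to 34.4 CPM in the 6 KO libraries, so the targeted transcript matched every label. KO BMP-off replicates 2 and 3 differed most, by 17.9 times the variance of counting, and their deviations from the group mean ran with transcript GC content in opposite directions (Spearman's rho across genes -0.603 and 0.586). Of 6 epithelial markers, 5 had a mean of at least 1 RPKM (authors' normalized read density per length and depth), *KRT18* the highest at 71.1 to 85.4, while *KRT19* was at most 0.0775. Of 7 fibroblast markers only *COL1A1* did, at 1.77 to 6.25 RPKM, with *COL1A2*, *COL3A1* and *DCN* at most 0.0652, and none of 4 immune or 3 endothelial markers did. The summed fibroblast markers reached 2.82 to 3.81 RPKM in WT BMP-off, 4.97 to 5.23 in WT BMP-on, 2.22 to 3.53 in KO BMP-off and 5.74 to 6.99 in KO BMP-on libraries. The summed epithelial markers were at 149 to 155, 167 to 180, 140 to 153 and 165 to 197 RPKM in the same order. With BMP both sums moved in the same direction as *BAMBI* and *NOG* did, and their part in those results was not tested. In bulk RNA, a change in the number of cells that express a gene and a change in RNA per cell cannot be told apart.

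Expression of the 9 genes spanned several orders of magnitude. Compared per length, *FSTL1* was the most abundant in every library (104.1 to 131.9 RPKM), ahead of *FSTL3* (40.4 to 61.9 RPKM) and *TWSG1* (27.6 to 37.9 RPKM). *BMPER* was low and even (2.752 to 3.598 RPKM). *CHRD* (0.0369 to 0.368 RPKM) and *FST* (0.0762 to 0.226 RPKM) were barely detected, and their ranges overlapped. *GREM1* had 2 counts in all, 1 in WT BMP-off replicate 1 and 1 in WT BMP-on replicate 1. Its other 10 libraries were at 0, where 3 counts, the limit a count of 0 allows, would be 0.102 to 0.157 CPM.

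**Figure D1:**
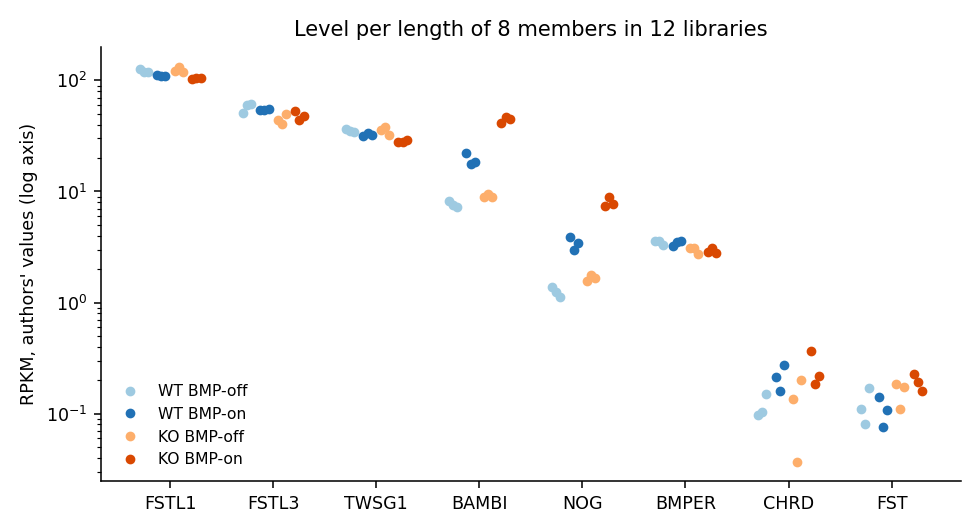
The level per length (RPKM, log axis) of 8 members is plotted by library, with 3 points for each of 4 groups; *GREM1*, with 2 counts in all, is not drawn. *BAMBI* climbs from 7.24 to 8.20 RPKM in WT BMP-off to between 41.0 and 47.1 RPKM in KO BMP-on, into the range of *FSTL3*.

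*BAMBI* and *NOG* changed their place in this order between groups. With BMP-off in WT cells, *BAMBI* lay between 7.24 and 8.20 RPKM, below all *TWSG1* values (34.2 to 36.8 RPKM). In KO cells with BMP-on it lay between 41.0 and 47.1 RPKM, above all *TWSG1* values (27.6 to 29.3 RPKM) and overlapping with *FSTL3* (44.03 to 52.6 RPKM). *NOG* started below *BMPER* in WT cells with BMP-off (1.25 ± 0.128 against 3.503 ± 0.161 RPKM; SD, n = 3 each). The groups overlapped in WT cells with BMP-on (3.42 ± 0.457 against 3.45 ± 0.184 RPKM; SD, n = 3 each), and *NOG* was above *BMPER* in KO cells with BMP-on (8.04 ± 0.822 against 2.89 ± 0.160 RPKM; SD, n = 3 each). Summed over the 9 genes, RPKM lay between 216.0 and 237.6 in all libraries. The sum was 227 ± 0.231 in WT BMP-off, 225 ± 2.14 in WT BMP-on, 219 ± 5.02 in KO BMP-off and 237 ± 0.666 in KO BMP-on cells (SD, n = 3 each). *BAMBI* made up 3.38% ± 0.216 of this sum in WT BMP-off, 8.66% ± 0.999 in WT BMP-on, 4.16% ± 0.0839 in KO BMP-off and 18.7% ± 1.31 in KO BMP-on cells (SD, n = 3 each). *FSTL1* made up 53.5% ± 1.88, 49.3% ± 0.351, 56.9% ± 1.67 and 44.3% ± 0.252 in the same order (SD, n = 3 each).

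Changes were tested with edgeR's quasi-likelihood test over 17188 genes, 8 of the 9 members among them, since *GREM1* did not pass the filter on low counts. *CHRD* and *FST* passed it with 3 to 33 and 5 to 16 counts per library. A gene is said to have passed where p, adjusted by Benjamini-Hochberg, did not exceed 0.05, and to have been called where its log2 fold change also reached 1 in either direction, the thresholds of the study. In the response of WT cells to BMP, which sets BMP-on beside BMP-off, 2 of 8 members passed, against 3.92% of all genes tested, and both were called (0.425% of all genes). In the BMP response of KO cells 4 passed (22.0% of all genes) and 2 were called (1.66%). In MIB1 KO against WT with BMP-on 3 passed (3.67% of all genes) and 2 were called (0.140%). With BMP-off none of the 8 passed or was called (0.0407% and 0.0116% of all genes), although *BAMBI*, *NOG*, *FSTL3* and *BMPER* had unadjusted edgeR p-values of 0.0201, 0.0218, 0.00354 and 0.00508, and none passed with DESeq2 either. In the interaction, the difference between the BMP responses of KO and WT cells, *BAMBI* alone passed (0.0931% of all genes) and none was called (0% of all genes, with 1817 genes at an unadjusted p under 0.05 and 1 gene called with DESeq2). The median log2 fold change of the 8 members was -0.028 in the WT response and 0.23 in the KO response, beside 0.0016 and 0.0056 over all genes.

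**Figure D2:**
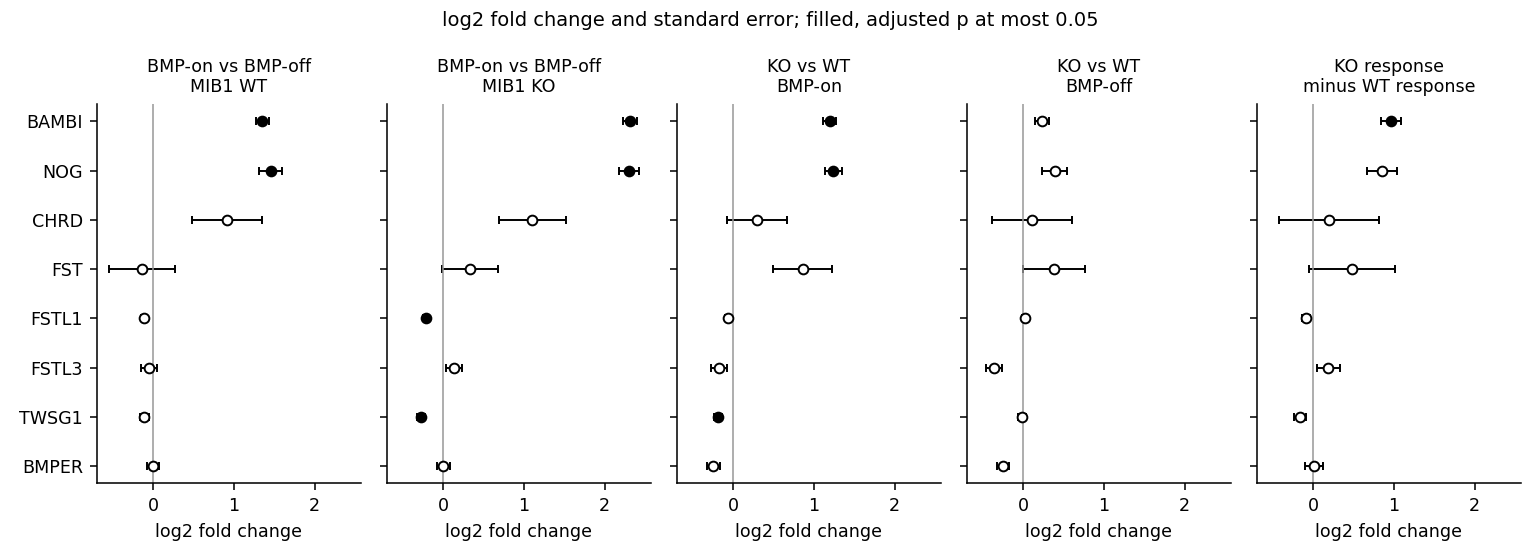
The log2 fold change (x axis) and its standard error are drawn for 8 members (rows) in the 5 comparisons (panels), filled where the edgeR adjusted p was at most 0.05. *BAMBI* and *NOG* stand at 1.35 and 1.45 in WT cells and at 2.31 and 2.30 in KO cells, while *FSTL1*, *FSTL3*, *TWSG1* and *BMPER* lie within 0.4 of 0 in every panel.

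*BAMBI*, the pseudoreceptor, rose with BMP in both genotypes and rose more in KO cells. Its levels were 14.5, 13.8 and 13.0 CPM in the WT BMP-off libraries (replicates 1 to 3 here and throughout), and 40.2, 32.1 and 33.5 CPM with BMP-on. In KO cells they were 15.9, 16.7 and 16.1 CPM with BMP-off and 75.0, 85.7 and 81.2 CPM with BMP-on. Of all genes tested, 23.9% had no overlap in the WT response, 35.8% in the KO response and 23.6% between KO and WT with BMP-on. For *BAMBI* no group overlapped with another, and the lowest KO BMP-on library was well above the highest WT BMP-on library. These values correspond to a 2.55-fold rise in WT cells (log2 fold change 1.35, standard error 0.086, edgeR adjusted p = 7.16e-08) and a 4.97-fold rise in KO cells (log2 fold change 2.31, standard error 0.083, edgeR adjusted p = 2.21e-11). By log2 fold change, *BAMBI* ranked 37th of 17188 genes in the WT response and 14th in the KO response. The rise in KO cells exceeded that in WT cells 1.95-fold (95% interval of the log2 difference 0.69 to 1.23, edgeR adjusted p = 0.00263), the 3rd smallest p-value in the interaction.

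*BAMBI* (ENSG00000095739) lies on the plus strand of chromosome 10 from 28677510 to 28682932. Its promoter is shown because it is the member with the clearest response, and that of *FSTL1* (ENSG00000163430, minus strand of chromosome 3, 120392293 to 120451016) because it is the most abundant member and moved the other way. Both sequences are from RefSeq promoters (GRCh38.p14), read on the strand of the gene, and end at the base before the GENCODE start, at chr10:28677271-28677509 (plus strand) and chr3:120451017-120451242 (minus strand). Capitals mark letters that SMAD proteins are known to bind, searched on both strands, which are GGCGCC (its own reverse complement), GGAGCC (or GGCTCC) and CAGAC (or GTCTG); no match of one overlaps another.
BAMBI promoter: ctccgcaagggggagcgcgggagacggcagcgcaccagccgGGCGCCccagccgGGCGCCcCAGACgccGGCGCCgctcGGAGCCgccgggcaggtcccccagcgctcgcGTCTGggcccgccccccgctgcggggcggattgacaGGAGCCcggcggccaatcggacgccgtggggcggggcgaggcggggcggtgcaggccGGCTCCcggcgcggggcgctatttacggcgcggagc
FSTL1 promoter: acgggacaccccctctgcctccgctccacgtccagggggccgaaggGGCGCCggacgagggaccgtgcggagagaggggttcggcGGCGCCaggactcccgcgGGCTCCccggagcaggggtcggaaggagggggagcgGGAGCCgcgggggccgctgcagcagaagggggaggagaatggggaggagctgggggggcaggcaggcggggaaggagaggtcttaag

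In the *BAMBI* promoter the 3 GGCGCC matches began 198, 185 and 170 bases before its GENCODE start, and 1 of its 2 CAGAC matches lay between the last 2 of them, 178 bases before the start. Among the 250-base windows before 35116 RefSeq starts, 0.527% held at least 3 GGCGCC, 3.08% at least 2 and 16.4% at least 1, while 30.6% held GGAGCC and 38.0% held CAGAC. The table held windows for 8 of the 9 members, with none for *NOG*, and 2 each for *BMPER* and *GREM1*. GGCGCC occurred at least 2 times in windows of *BAMBI*, *FSTL1*, *BMPER* and *GREM1*, and CAGAC only in those of *BAMBI* and *GREM1*. *FSTL1*, which fell with BMP, and *GREM1*, which had next to no reads, thus shared matches with *BAMBI*. The *BAMBI* window was 81.2% G and C and that of *FSTL1* 74.4%, beside a median of 58.0% over all promoters. A match describes the letters only and is not a bound site.

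*NOG* (ENSG00000183691, plus strand of chromosome 17, 56593699 to 56595611), which encodes noggin, followed *BAMBI* at a lower level. It was at 2.48, 2.26 and 2.05 CPM in WT cells with BMP-off and at 7.08, 5.43 and 6.24 CPM with BMP-on. KO cells had 2.79, 3.13 and 3.03 CPM with BMP-off and 13.7, 16.4 and 14.2 CPM with BMP-on. As for *BAMBI*, the 4 groups did not overlap and had the same order. The rise was 2.74-fold in WT cells (log2 fold change 1.45, standard error 0.14, edgeR adjusted p = 7.32e-06) and 4.94-fold in KO cells (log2 fold change 2.30, standard error 0.12, edgeR adjusted p = 3.54e-09), the 24th and the 16th largest of all genes. The KO response exceeded the WT response 1.81-fold (95% interval of the log2 difference 0.41 to 1.29), which did not pass after adjustment (edgeR adjusted p = 0.0851) but did with DESeq2 (adjusted p = 0.0237) and without a filter on low counts (edgeR adjusted p = 0.00708). In the interaction DESeq2 passed 154 genes and the fit without a filter 318, against 16 in the filtered edgeR fit.

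**Figure D3:**
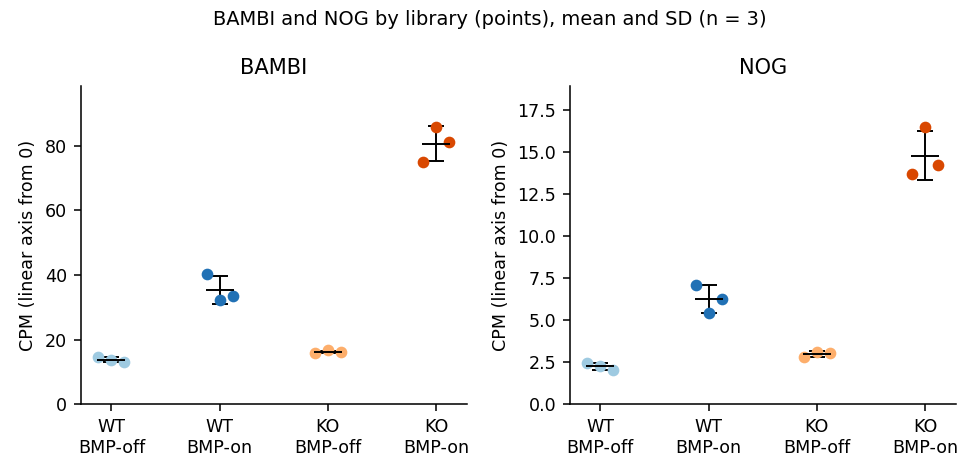
*BAMBI* (left) and *NOG* (right) are plotted in CPM for the 3 libraries of each group, with the mean and SD as black bars. Both run in the order WT BMP-off, KO BMP-off, WT BMP-on and KO BMP-on, ending between 75.0 and 85.7 CPM for *BAMBI* and between 13.7 and 16.4 CPM for *NOG*.

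With BMP-on, KO cells had 2.29 times the *BAMBI* and 2.36 times the *NOG* level of WT cells (edgeR adjusted p = 1.76e-07 and 1.26e-05). With BMP-off the KO libraries were all above the WT libraries too, by 1.17-fold for *BAMBI* (95% interval of the log2 fold change 0.025 to 0.44, edgeR adjusted p = 0.424) and 1.31-fold for *NOG* (0.036 to 0.74, edgeR adjusted p = 0.426). Of all genes tested, 11.7% had groups that did not overlap in this comparison. Neither gene therefore passed with the receptor inhibitor present, and the intervals leave room for differences of up to 0.44 and 0.74 on the log2 scale.

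*BAMBI* and *NOG* also moved together from library to library. The number of *BAMBI* counts for each *NOG* count, which no scaling of libraries can alter, was 5.87, 6.10 and 6.36 in WT BMP-off, 5.68, 5.91 and 5.37 in WT BMP-on, 5.70, 5.32 and 5.31 in KO BMP-off and 5.49, 5.21 and 5.72 in KO BMP-on libraries. It thus stayed between 5.21 and 6.36 while both genes rose almost 5-fold in KO cells. Each library's 95% interval (exact Clopper-Pearson, for counting error only) held the median of 5.69, the narrowest being 4.90 to 6.16 in KO BMP-on replicate 1. The mean ratio was highest in WT BMP-off (6.11 ± 0.243) and lowest in KO BMP-off cells (5.44 ± 0.224; SD, n = 3 each), and 3 against 3 libraries cannot give an exact permutation p below 0.10.

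**Figure D4:**
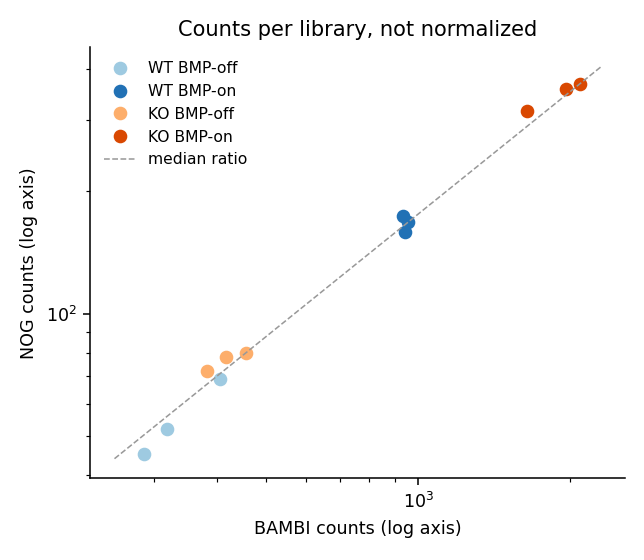
Counts of *BAMBI* (x axis) and *NOG* (y axis), without normalization and on log axes, are drawn for 12 libraries, with a dashed line at their median ratio of 5.69. All libraries lie along the line, from 286 and 45 counts in WT BMP-off replicate 3 to 2093 and 366 counts in KO BMP-on replicate 3.

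Over the 12 libraries, *NOG* was the gene with the pattern most like *BAMBI* among 12836 genes with a mean of at least 50 counts, and *BAMBI* the gene most like *NOG* (Pearson's r of log2 CPM 0.9975). Both genes placed the libraries in an identical order (Spearman's rho 1). Next to *BAMBI* followed *SOCS2* (0.9958), *EML1* (0.9955), *HEY1* (0.9953) and *MRAS* (0.9947), and next to *NOG* followed *MRAS* (0.9952), *HEY1* (0.9931), *HES1* (0.9926) and *EML1* (0.9924). Most of this likeness is the group difference itself. With group means removed, the r of *BAMBI* and *NOG* was 0.912, where the median over all genes compared with *BAMBI* was -0.0042 and the 95th percentile 0.679. By this measure *NOG* was 10th for *BAMBI* and *BAMBI* 8th for *NOG*. These values describe 12 libraries with shared depth and scaling, so no p is given.

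The modulator *TWSG1* (ENSG00000128791, plus strand of chromosome 18, 9334767 to 9402420) and *FSTL1* went the other way. *FSTL1* was at 710.9, 680.3 and 678.8 CPM in WT cells with BMP-off and at 637.0, 635.9 and 636.4 CPM with BMP-on. KO cells had 690.7, 725.7 and 685.1 CPM with BMP-off and 603.0, 606.0 and 606.5 CPM with BMP-on. Groups did not overlap for 23.9% of all genes in the WT response and for 35.8% in the KO response. For *FSTL1*, all BMP-on libraries were below all BMP-off libraries. The difference was small, 0.864-fold in KO cells (log2 fold change -0.21, standard error 0.037, edgeR adjusted p = 0.000684) and 0.922-fold in WT cells (log2 fold change -0.12, standard error 0.037, edgeR adjusted p = 0.101). After a correction for GC content (library deviations regressed on transcript GC) the WT value was -0.11 and passed (edgeR adjusted p = 0.0225). *FSTL1* did not pass between KO and WT cells, with 95% intervals of -0.158 to 0.013 with BMP-on and -0.064 to 0.107 with BMP-off on the log2 scale. Exons of *FSTL1* overlap those of *BTNL12P* on the opposite strand, which had 704 counts in all beside 199044 for *FSTL1*.

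*TWSG1* was at 148.7, 145.3 and 139.9 CPM in WT BMP-off and at 130.4, 138.4 and 133.0 CPM in WT BMP-on libraries. In KO cells it was at 144.5, 150.0 and 133.6 CPM with BMP-off and at 116.0, 114.5 and 121.7 CPM with BMP-on. The KO BMP-on libraries were the lowest 3 of the 12. Of all genes tested, 35.8% had no overlap in the KO response and 23.6% between KO and WT with BMP-on. *TWSG1* fell in KO cells to 0.823-fold (log2 fold change -0.28, standard error 0.051, edgeR adjusted p = 0.000828), and this was -0.18 after the GC correction (edgeR adjusted p = 0.00108). The WT value, -0.11 (standard error 0.050), did not pass (edgeR adjusted p = 0.303), and the difference between both responses, -0.17, did not either (edgeR adjusted p = 0.410). KO against WT cells with BMP-on gave -0.19 for *TWSG1*, which barely passed (standard error 0.051, edgeR adjusted p = 0.0485). It no longer passed when any of 10 libraries was removed (edgeR adjusted p = 0.266 without WT BMP-on replicate 2, the highest) and still passed without KO BMP-off replicate 2 or 3.

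**Figure D5:**
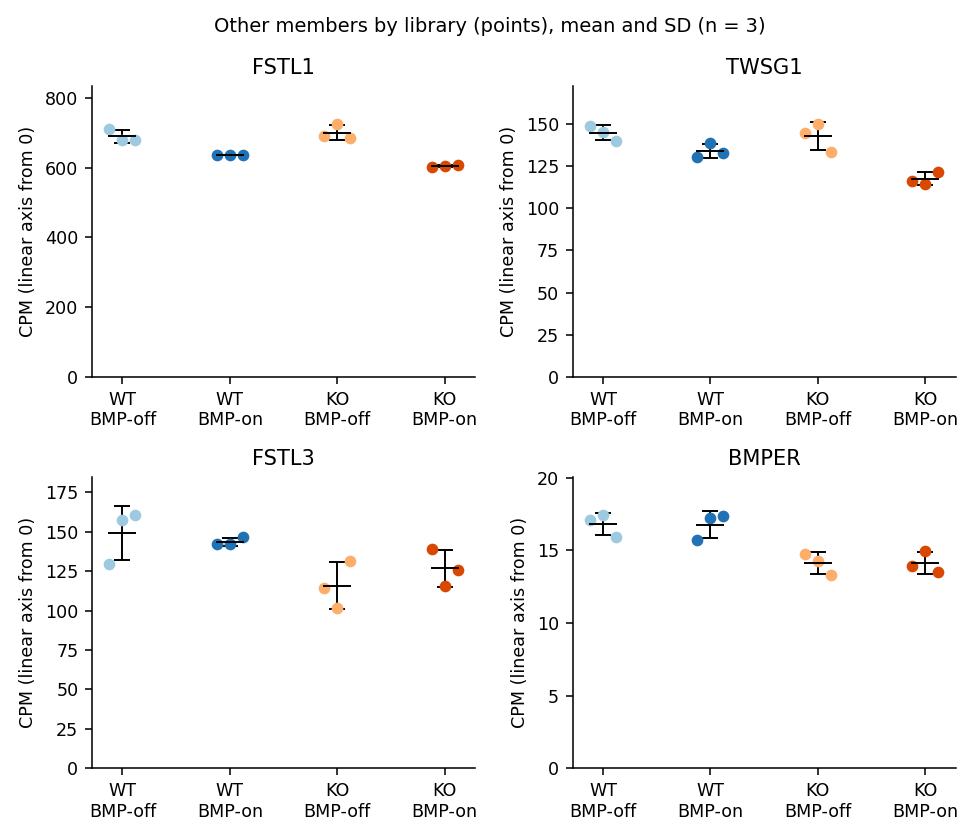
*FSTL1*, *TWSG1*, *FSTL3* and *BMPER* are plotted in CPM from 0 for the 3 libraries of each group, with the mean and SD as black bars. *FSTL1* and *TWSG1* are lowest in KO BMP-on (603.0 to 606.5 and 114.5 to 121.7 CPM), *BMPER* is lower in both KO groups, and *FSTL3* spreads most with BMP-off.

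*BMPER* (ENSG00000164619, plus strand of chromosome 7, 33904308 to 34156427) had no detectable BMP response. Its levels were 17.1, 17.4 and 15.95 CPM in WT BMP-off, 15.7, 17.2 and 17.4 CPM in WT BMP-on, 14.8, 14.3 and 13.3 CPM in KO BMP-off and 13.9, 15.0 and 13.5 CPM in KO BMP-on libraries. On the log2 scale the response had a 95% interval of -0.181 to 0.172 in WT cells and -0.184 to 0.180 in KO cells. All KO libraries were below all WT libraries, by -0.25 in both BMP states (standard error 0.078 in each), which did not pass (edgeR adjusted p = 0.105 with BMP-on and 0.366 with BMP-off). Groups did not overlap for 23.6% of all genes with BMP-on and for 11.7% with BMP-off. The BMP-on value passed after the GC correction (edgeR adjusted p = 0.0433).

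*FSTL3* (ENSG00000070404, plus strand of chromosome 19, 676392 to 683392) changed with the processing. It was at 129.5, 157.3 and 160.5 CPM in WT BMP-off, 142.2, 142.3 and 146.7 CPM in WT BMP-on, 114.5, 101.6 and 131.5 CPM in KO BMP-off and 139.2, 115.8 and 125.6 CPM in KO BMP-on libraries. The BMP response was -0.052 in WT and 0.13 in KO cells on the log2 scale, and neither passed (edgeR adjusted p = 0.860 and 0.381). The longest *FSTL3* transcript has 64.3% G and C. The lowest KO BMP-off library was replicate 2, with a GC trend of -0.603 (Spearman's rho), and a part of this trend in the *FSTL3* values was not tested. After the GC correction the KO response turned negative and passed (-0.27, edgeR adjusted p = 0.000194), and the WT response passed too (-0.18, edgeR adjusted p = 0.018). This correction also takes out differences between groups that run with GC, so it does not settle the direction of either response. KO against WT was -0.36 with BMP-off (edgeR adjusted p = 0.350) and -0.18 with BMP-on (edgeR adjusted p = 0.483). The first passed without a filter on low counts (-0.37, edgeR adjusted p = 1.35e-06), although its groups overlapped. Without the filter 233 genes passed in that comparison, against 7 with it. The second passed in a fit of the BMP-on groups alone (edgeR adjusted p = 0.0412) and after the GC correction (-0.28, edgeR adjusted p = 0.000529). Over all genes, these settings passed 1237 and 1270 genes in that comparison, against 630 in the main fit.

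*CHRD* (ENSG00000090539, plus strand of chromosome 3, 184380054 to 184390736), which encodes chordin, had 9, 8 and 11 counts in WT BMP-off, 17, 16 and 26 in WT BMP-on, 13, 3 and 16 in KO BMP-off and 33, 12 and 19 in KO BMP-on libraries. In WT cells the BMP-on CPM were all above those with BMP-off, in a comparison where 23.9% of all genes had no overlap. In KO cells the groups overlapped. The response was 0.92 in WT and 1.11 in KO cells on the log2 scale, with standard errors of 0.44 and 0.42, and did not pass (edgeR adjusted p = 0.334 and 0.0676). The KO value passed in 2 of 24 alternatives. These were no filter on low counts (edgeR adjusted p = 0.016) and leaving out KO BMP-off replicate 3, where it was 1.56 (edgeR adjusted p = 0.0153). Without that replicate, the KO BMP-off libraries held 13 and 3 counts. Leaving out each library in turn gave 0.685 to 1.56, with edgeR adjusted p up to 0.332. Exons of *CHRD* overlap with *THPO* on the opposite strand, which had 50 counts in all beside 183 for *CHRD*, and whether the counting used strand is not given in the sources used here.

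*FST* (ENSG00000134363, plus strand of chromosome 5, 53480626 to 53487134) had 8, 5 and 10 counts in WT BMP-off, 9, 6 and 8 in WT BMP-on, 14, 7 and 11 in KO BMP-off and 16, 10 and 11 in KO BMP-on libraries. Follistatin did not respond detectably to BMP at this depth, with wide 95% intervals of -1.09 to 0.795 in WT and -0.463 to 1.12 in KO cells on the log2 scale. With BMP-on its CPM were all higher in KO cells, but the log2 fold change of 0.86 did not pass (standard error 0.37, edgeR adjusted p = 0.295). Groups did not overlap for 23.6% of all genes in this comparison. No comparison was made for *GREM1* (ENSG00000166923, plus strand of chromosome 15, 32718004 to 32745106).

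Other genes of the pathway were taken from lists compiled from general knowledge. Of 36 further extracellular inhibitors and modulators, 15 were tested. In WT cells 1 rose and 1 fell with BMP, and in KO cells 5 rose and 1 fell, where 3.92% and 22.0% of all genes passed in either direction. Their median log2 fold change was 0.065 and 0.23, beside 0.0016 and 0.0056 over all genes. *HTRA1*, a secreted serine protease, rose by 0.99 in WT and 1.79 in KO cells (edgeR adjusted p = 2.81e-06 and 1.14e-09), and this difference of 0.80 passed the interaction test (standard error 0.12, edgeR adjusted p = 0.0178). In the KO response *LTBP3* (0.65), *TSKU* (0.44), *PCSK6* (0.32) and *TLL2* (0.98) also rose (edgeR adjusted p between 0.00178 and 0.0115). Of these, *TLL2* was barely detected, with group means of 0.103 to 0.196 RPKM. *TSKU* encodes a small secreted BMP inhibitor, PCSK6 is a proprotein convertase and *TLL2* encodes a protease of the family that cleaves chordin. *LTBP1*, which encodes a protein that holds latent TGF-β in the matrix, fell by 0.31 in WT and 0.38 in KO cells (edgeR adjusted p = 0.00729 and 0.000368). The BMP antagonists *CER1*, *SOST*, *SOSTDC1* and *CHRDL1* were among the 21 genes that did not pass the filter on low counts. *CHRDL2*, *NBL1*, *CRIM1* and *SMOC1* were tested and passed in none of the 5 comparisons.

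Of 14 intracellular inhibitors, all tested, 6 rose and 1 fell in the WT response, and 8 rose and 1 fell in the KO response, against 3.92% and 22.0% of all genes that passed. Their medians were 0.12 and 0.25. The inhibitory SMADs rose in WT and KO cells by 1.44 and 1.42 for *SMAD6* and by 1.11 and 1.35 for *SMAD7*, and *SMAD9*, the receptor SMAD with weak activity, rose by 2.41 and 2.19. *PMEPA1* (0.38 and 0.61), *SKI* (0.37 and 0.53) and *SKIL* (0.37 and 0.20), which hold back SMAD activity, rose less, and *TOB1* fell (-0.18 and -0.14). *SMURF2*, an E3 ligase for SMADs and receptors, rose in KO cells (0.30, edgeR adjusted p = 0.000271). With BMP-on, 4 of the 14 were higher in KO than in WT cells, where 3.67% of all genes passed. These were *SMAD6* (0.41), *SMAD7* (0.48), *SMAD9* (0.75) and *SMURF2* (0.26; edgeR adjusted p at most 0.0268). With BMP-off 1 of the 14 passed, *SMAD9* (0.97, edgeR adjusted p = 5.64e-05), where 0.0407% of all genes did. None of the 14 passed the interaction test, where 0.0931% of all genes passed. The median of the 14 in that test was 0.020 beside 0.012 over all genes. All 9 tested BMP target genes of a list of 10 rose in both responses, with medians of 1.27 and 1.39. Between KO and WT cells, 6 of the 9 were higher in KO cells with BMP-on and 1 with BMP-off. In the interaction, where 0.0931% of all genes passed, 1 of the 9 did, the transcriptional repressor gene *HEY1* (0.88, standard error 0.13, edgeR adjusted p = 0.0112). That list shares *SMAD6*, *SMAD7* and *SMAD9* with the inhibitors.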

How the data were processed

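RNA-seq of 12 libraries was analysed from the deposited tables. Per the study's methods, the authors removed ribosomal reads, aligned with GSNAP to GRCh38 and used HTSeqGenie to count over RefSeq exons. The count table deposited by the authors holds raw counts per Ensembl identifier, and their RPKM table holds values normalized for length and depth; whether strand was used, and the library kit of these samples, are not given in the sources used here. Of 58302 identifiers, 57532 had a GENCODE v44 symbol. The methods name RefSeq exons, while the counts are given per Ensembl identifier. Which exon models gave these counts and RPKM lengths is therefore not settled by the sources used here.

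Counts were filtered with filterByExpr, scaled by TMM (factors 0.984 to 1.02) and tested with edgeR 4.0.16 in R 4.3.3 (robust quasi-likelihood fit of 4 groups over 17188 genes, Benjamini-Hochberg adjustment within each of 5 comparisons). RPKM served to compare levels between genes. Totals of 19124010 to 29498000 counts set the precision; intervals of ratios and limits of 0 counts cover counting error only. All 9 members and the likeness rule (the 5 highest Pearson's r among genes with a mean of at least 50 counts) are named. The members and gene lists were chosen with earlier results of these data known. On simulated counts for the BMP response of KO cells (17188 genes), 92% of 1.5-fold and 100% of 3-fold changes passed with edgeR, as did 10 unchanged genes. For the interaction (17188 genes) 72% and 100% passed, as did 12 unchanged genes. In these simulated counts the changed genes had a mean over 50 counts, every gene had the same dispersion, and no GC trend was put in. The rates therefore do not cover genes as low as *CHRD* and *FST*, or libraries with GC trends.

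Alternatives were DESeq2 1.42.0, upper quartile or library size scaling, limma-voom (limma 3.58.1) with quantile normalization, no filter, at least 10 counts in every library, only the groups compared, the replicate number as a block, a correction for transcript GC content (with and without the block), limma on log2(RPKM + 1) or log2(RPKM + 0.1), and leaving out each library. The GC correction regressed each library's deviation from the mean over all libraries on GC, so it also takes out differences between groups that run with GC. No pair of libraries was identical.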

Additional observations from a re-analysis of the deposited data

Results flagged for a closer look

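*BAMBI* was set apart because its BMP response differed between MIB1 KO and WT cells by the interaction test. The log2 fold change was 1.35 in WT and 2.31 in KO cells, and the difference was 0.96 (standard error 0.12, edgeR adjusted p = 0.00263). All 3 KO BMP-on libraries were above all 3 WT BMP-on libraries, in a comparison where 23.6% of all genes had no overlap. Groups of 3 libraries were not searched for outlying values.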

How the results depend on the processing

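In 25 alternatives each, *BAMBI* and *NOG* passed in both BMP responses and in KO against WT with BMP-on, and did not pass with BMP-off. In the interaction *BAMBI* passed in 23 of 24, failing on log2(RPKM + 0.1) (0.939, limma adjusted p = 0.0515), and *NOG* passed with DESeq2 (0.853) and without a filter (0.849). Members called in the WT response numbered 1 on log2(RPKM + 1), with or without a filter, and in the interaction 0 to 1 when a library was left out (1 without WT BMP-on replicate 1 or KO BMP-on replicate 1). In the KO response 3 were called and 5 passed without a filter and without KO BMP-off replicate 3, and 5 passed with the GC correction. Over all genes, that response then passed for 4279 of 34618, 5323 of 17503 and 4251 of 17188 genes in this order, against 3777 of 17188. It was called for 360 and 443 genes in the first 2 settings, against 286. Without KO BMP-on replicate 1 the KO response passed for 2313 genes. Members past the adjusted p alone numbered 4 in the WT response (GC correction, with or without the block), 5 in KO against WT with BMP-on (GC correction), 1 with BMP-off (no filter), and in the interaction 2 (DESeq2, no filter) or 0 (log2(RPKM + 0.1)). Over all genes, the interaction passed for 16 genes, but for 154 with DESeq2, 318 without a filter, 236 after the GC correction, 3 with the block, 234 without WT BMP-off replicate 1 and 220 without KO BMP-off replicate 3. KO against WT with BMP-off passed for 7 genes, but for 35, 233 and 96 in the first 3 of these and for 40 and 50 in the last 2. Leaving out a library moved the WT response to between 366 (without WT BMP-on replicate 1) and 1118 genes (without KO BMP-off replicate 2), and KO against WT with BMP-on to as few as 326 (without WT BMP-on replicate 3). The GC correction raised the WT response from 674 to 1540 and KO against WT with BMP-on from 630 to 1270 genes. No scaling moved the median of all genes by over 0.1.

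Values near 0 changed sign. *BMPER* in the KO response was 0.0162 (library size), 0.00122 (at least 10 counts), 0.046 (GC correction) and 0.0478 (GC correction with block), and -0.0545 to 0.0232 leaving out libraries. In the WT response it was 0.00879 and 0.00849 (GC correction without and with block) and -0.0438 to 0.0389. In the interaction it was -0.00967 (upper quartile), -0.0746 (limma-voom), -0.00177 (no filter), -0.00921 (log2(RPKM + 1), with or without a filter), -0.0126 (log2(RPKM + 0.1)) and -0.0497 to 0.034. With the GC correction, without and with block, *FSTL3* was -0.274 and -0.273 in the KO response and -0.093 and -0.0923 in the interaction, *CHRD* -0.0628 and -0.065 in the interaction, and *FSTL1* -0.0116 and -0.0116 with BMP-off. *CHRD* with BMP-off was -0.0964 (limma-voom) and -0.0147 (log2(RPKM + 0.1)). Leaving out libraries gave -0.23 to 0.648 (*CHRD*, interaction), -0.358 to 0.52 (*CHRD*, BMP-off), -0.0863 to 0.511 (*CHRD*, BMP-on), -0.361 to 0.153 (*FST*, WT response), -0.00474 to 0.0551 (*FSTL1*, BMP-off), -0.139 to 0.00165 (*FSTL3*, WT response) and -0.0572 to 0.035 (*TWSG1*, BMP-off). The cause was not tested. *CHRD* and *FST* gave no value at 10 counts in every library, and their low counts limit what can be detected.

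Replicate numbers did not pair the libraries (2 of 18 same-numbered pairs had r over 0.1, from -0.187 to 0.189). With the replicate block, *TWSG1* in KO against WT with BMP-on no longer passed (-0.189, edgeR adjusted p = 0.0934). It did not pass in 17 of 25 alternatives in all.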

Other observations

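Membrane co-receptors, ligands and receptors of the pathway are given here by their counts. Of 12 membrane co-receptors and modulators, 8 were tested, and *TGFBR3* (betaglycan) and *SDC4* (syndecan-4) fell with BMP in both genotypes. They were the only 2 of the 8 to pass in either response, where 3.92% (WT) and 22.0% (KO) of all genes passed. *TGFBR3* fell by 0.38 in WT and 0.73 in KO cells on the log2 scale (edgeR adjusted p = 0.000106 and 2.79e-08), and *SDC4* by 0.37 and 0.62 (edgeR adjusted p = 0.000105 and 1.21e-07). With BMP-on both were lower in KO than in WT cells (-0.39 and -0.24, edgeR adjusted p = 0.000186 and 0.00449), but the difference in response did not pass (edgeR adjusted p = 0.0518 and 0.128). Between KO and WT cells with BMP-on, 3.67% of all genes passed. Of 18 ligands the antagonists could bind, 8 were tested. None passed in WT cells (3.92% of all genes did), and in KO cells *GDF11* rose by 0.20 and *BMP8B* fell by 0.33 (edgeR adjusted p = 0.0295 and 0.0159), 2 of 8 where 22.0% of all genes passed. Of 11 receptors, 8 were tested, and *BMPR2*, a type II receptor, rose by 0.40 in WT and 0.49 in KO cells (edgeR adjusted p = 0.00660 and 0.000295), with *ACVR1* rising in KO cells (0.22, edgeR adjusted p = 0.0168). Thus 1 of 8 receptors passed in WT and 2 of 8 in KO cells, where 3.92% and 22.0% of all genes did.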
